A study of Mus musculus with 20 samples.

Results

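The microRNA miR-582 was measured through both strands of its hairpin, mmu-miR-582-5p and mmu-miR-582-3p (the prefix is left out below), in the livers of PiZ and wild-type (WT) mice. These are 2 of the 880 rows listed in every count file. Both arms were chosen from the PiZ and WT values themselves, since both were higher in PiZ liver, so the difference between genotypes is described here and not tested. The study sequenced small RNA from 5 PiZ and 5 WT livers, all from 6-week-old C57BL/6 mice, with 2 technical runs per library that were summed. PiZ mice carry a human transgene for the Z variant of alpha-1 antitrypsin, a secreted protease inhibitor that folds poorly and collects in the endoplasmic reticulum of hepatocytes; the mouse antitrypsin genes are still present. The labels give the genotype only as PiZ or wild-type, with no founder line, and name no sex.

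A miRNA hairpin is cut out of a longer transcript and then trimmed to a short duplex whose strands are called the 5p and the 3p arm. Usually one arm is loaded into an Argonaute protein and kept while the other is degraded. The loaded arm pairs with messenger RNAs mainly through its seed, bases 2 to 8 from the 5′ end, and lowers their translation or stability. miR-582 is an intronic miRNA, and its host gene Pde4d encodes a phosphodiesterase that hydrolyses cyclic AMP. In human monocytes miR-582-5p has been reported to target FOXO1.

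The sequences are shown because each arm is read by its seed, in capitals. Both come from RefSeq on GRCm38.p6, matched by name, and are written 5′ to 3′.
miR-582-5p: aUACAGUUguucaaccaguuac
miR-582-3p: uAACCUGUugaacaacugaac
miR-582-5p has 22 bases and lies at chr13:109324753-109324774 on the plus strand. miR-582-3p has 21 bases and lies at chr13:109324790-109324810 on the same strand. Of 1677 other mouse mature miRNAs in the RefSeq table, 0 share the seed of miR-582-5p and 0 that of miR-582-3p. The search covered RefSeq sequences only, and 740 of the 880 measured rows matched a RefSeq name. The nearest other mature sequence differs from miR-582-5p by 8 edits (substituted, inserted or deleted bases) and from miR-582-3p by 7, and all deposited counts of both arms were whole numbers. The hairpin, with both arms in capitals, shows how they face each other.
Mir582 hairpin: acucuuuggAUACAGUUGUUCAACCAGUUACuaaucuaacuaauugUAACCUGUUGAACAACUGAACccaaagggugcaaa
It spans chr13:109324744-109324824, and 15 bases separate the arms. In the minimum free energy structure of RNAfold, a prediction, 16 base pairs join the 5p to the 3p arm. A run of 12 bases of the 5p arm is the exact reverse complement of a run in the 3p arm. In the GENCODE annotation of GRCm38, Pde4d covers chr13:108449948-109953461 on the same strand, and 6 of its 20 transcripts span the hairpin. It is exonic in 0 of these 6. The smallest of the introns that hold it is 216431 bases long, with 207663 bases before the hairpin and 8687 after it. No messenger RNA was measured, so the level of Pde4d is not known here.

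Libraries held 1307857 to 10780801 reads. The files come in 2 sets with different row lists, 1399 rows (PiZ mice 1 and 2, WT mice 1 to 3) and 990 rows (PiZ mice 3 to 5, WT mice 4 and 5), and the first set was sequenced less deeply. A read was worth 0.0887 CPM (reads scaled to library size, with TMM factors) in PiZ mouse 4 and 0.715 CPM in WT mouse 1, so low levels are least precise in WT mice 1 to 3. On the first principal component of log2 CPM, which held 61.8% of the variance, PiZ mice 1 to 4 lay between 11.5 and 18.9, and PiZ mouse 5 lay at -3.54, nearer the WT mice at -16.6 to -6.18. WT mice 1 and 3 stood apart on the second component, with 10.8 and 8.07 against -7.43 to 4.18 in the other libraries. The values of miR-582 below are therefore given with these 3 libraries named.

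miR-582-5p, the arm with seed UACAGUU, stood at 7.37, 3.94, 12.2, 8.25 and 1.91 CPM in PiZ mice 1 to 5, against 0, 0.522, 0, 1.52 and 1.19 CPM in WT mice 1 to 5. Every PiZ mouse lay above every WT mouse, but PiZ mouse 5 only just, at 1.26 times WT mouse 4. The counts behind these levels were 18, 10, 122, 93 and 16 reads in PiZ mice 1 to 5, against 0, 1, 0, 10 and 11 reads in WT mice 1 to 5. Over 5 mice each, PiZ livers averaged 6.74 ± 3.99 CPM and WT livers 0.646 ± 0.690 CPM (SD), a ratio of means of 10.4. The fitted log2 fold change was 2.96 (SE 0.65).

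miR-582-3p, the opposite strand, stood at 13.5, 5.52, 12.0, 8.61 and 3.95 CPM in PiZ mice 1 to 5, against 0.715, 1.04, 0, 2.12 and 2.50 CPM in WT mice 1 to 5. Here too the groups did not overlap, and PiZ mouse 5 was again the lowest PiZ mouse, at 1.58 times WT mouse 5. Its counts were 33, 14, 120, 97 and 33 reads in PiZ mice 1 to 5, against 1, 2, 0, 14 and 23 reads in WT mice 1 to 5. PiZ livers averaged 8.72 ± 4.09 CPM and WT livers 1.28 ± 1.02 CPM (SD, 5 mice each), a ratio of means of 6.84, and the fitted log2 fold change was 2.49 (SE 0.55).

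**Figure D1:**
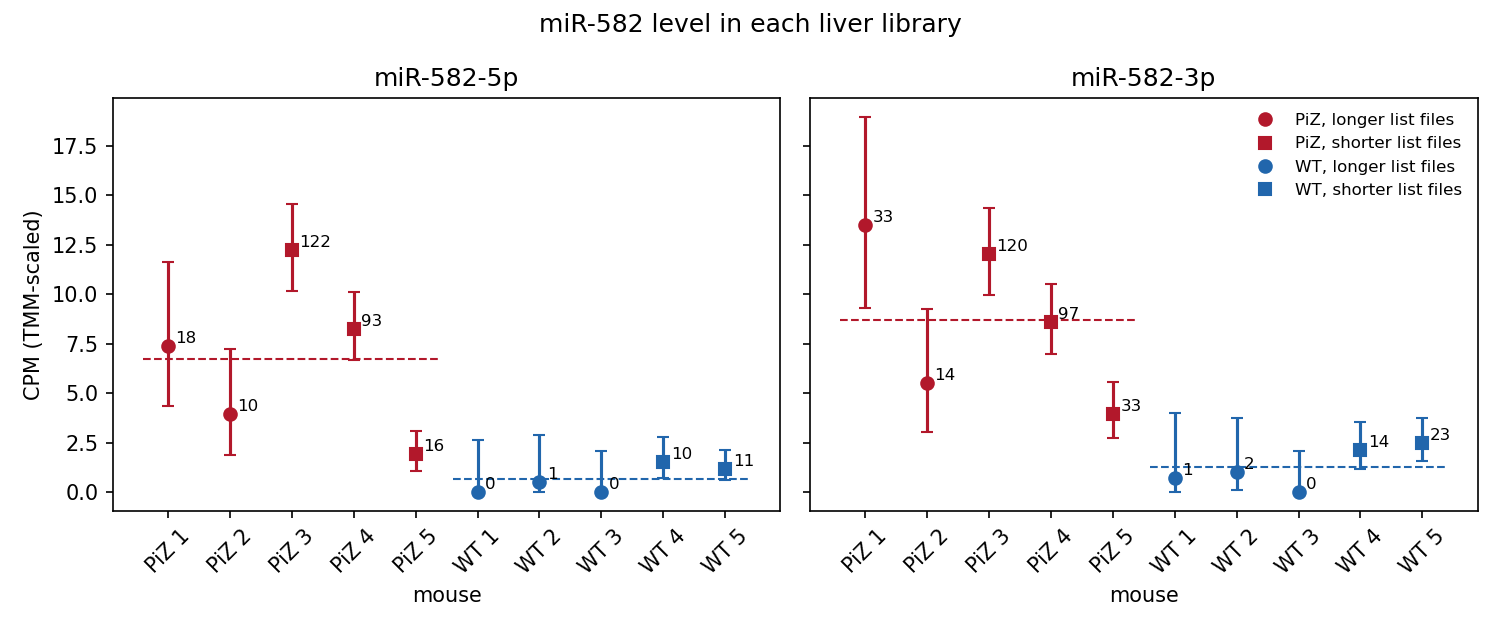
Level of miR-582-5p (left) and miR-582-3p (right) in CPM for each mouse, PiZ in red and WT in blue, with exact 95% Poisson intervals that cover counting error only, group means as dashed lines and read counts beside the points. All PiZ points lie above all WT points, and PiZ mouse 5, at 1.91 and 3.95 CPM, lies nearest to the WT mice.

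Among all 336 miRNAs tested in edgeR's quasi-likelihood test, 28 (8.33%) were called higher in PiZ at a Benjamini-Hochberg adjusted p under 0.05, and 3 (0.893%) lower. Both arms of miR-582 are among the 28. These calls depend on the libraries: the count over both directions, 31, was 5 to 20 when any mouse other than PiZ mouse 5 was left out, 46 without PiZ mouse 5, and 0 without WT mice 1 and 3. The calls of the arms moved with it: of 10 fits that left out 1 mouse each, miR-582-5p was called in 3 (without PiZ mouse 3, 4 or 5) and miR-582-3p in 4 (those and without WT mouse 3). Neither arm was called with limma-voom or with the second run alone. In 22 of the 336 (6.55%), every PiZ mouse lay above every WT mouse. Of 83 hairpins with both arms tested, 5 (6.02%) had both arms called higher, and 4 (4.82%) had both arms without overlap between genotypes; miR-582 is in both counts. Nothing is read from these shares, since the choice of miR-582 rests on the same contrast. Both arms are low: by mean CPM over the 10 mice, miR-582-3p ranked 262 and miR-582-5p ranked 282 of the 336. The median log2 fold change of all tested miRNAs was 0.069.

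**Figure D2:**
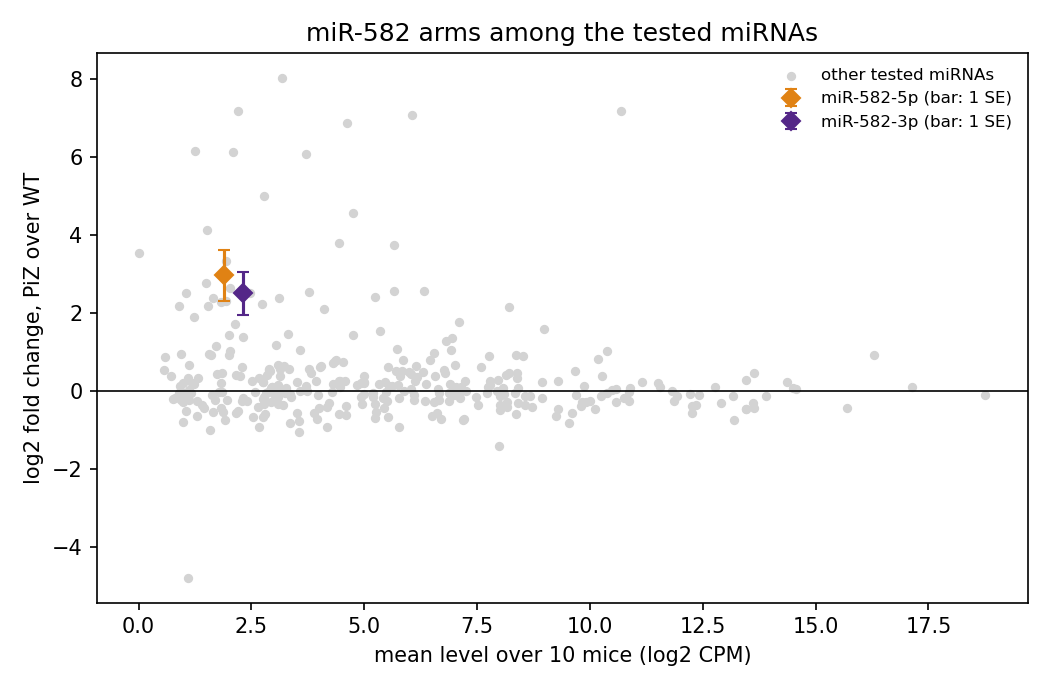
Fitted log2 fold change of PiZ over WT against mean level over 10 mice in log2 CPM, for 336 tested miRNAs in grey and both arms of miR-582 as diamonds with bars of 1 SE. The arms lie at 2.96 (5p) and 2.49 (3p), at the low end of the range of levels.

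The arms lay near the limit of the expression filter, which asked for about 2.09 CPM before scaling in at least 2.86 libraries. miR-582-5p reached it in 4 PiZ and 0 WT mice, and miR-582-3p in 5 PiZ and 1 WT mice, so the PiZ libraries carried both arms through it. The depth of WT mice 1 to 3 leaves room for few reads. At the mean CPM of WT mice 4 and 5, these 3 libraries would hold 1.89, 2.60 and 2.42 reads of miR-582-5p and 3.23, 4.43 and 4.12 reads of miR-582-3p. At the PiZ mean they would hold 9.42 to 12.9 reads of miR-582-5p and 12.2 to 16.7 reads of miR-582-3p, against at most 1 and 2 reads seen. The PiZ mean belongs to the contrast that chose the arms, so this restates that contrast and adds no support.

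The ratio of summed reads was larger in the shallower set of files, where WT reads were few and its interval was wide. The intervals of the 2 sets overlapped for both arms, for miR-582-3p only between 5.16 and 5.24, which does not show equal ratios. In the deeper set, with 3 PiZ and 2 WT mice, summed reads were 231 in PiZ and 21 in WT for miR-582-5p, a scaled ratio of 5.87 (95% exact counting interval 3.75 to 9.67). For miR-582-3p in this set they were 250 in PiZ and 37 in WT, a ratio of 3.61 (2.55 to 5.24). The shallower set, with 2 PiZ and 3 WT mice, had 28 PiZ reads and 1 WT read of miR-582-5p (ratio 28.7, interval 4.74 to 1172) and 47 PiZ and 3 WT reads of miR-582-3p (ratio 16.0, interval 5.16 to 80.6). These intervals leave out the spread between mice. Without PiZ mouse 5 and WT mice 1 and 3, the scaled ratio was 7.46 (4.82 to 12.1) for miR-582-5p and 4.57 (3.26 to 6.58) for miR-582-3p. Leaving out these mice was a choice made after seeing the data, and the ratios restate the contrast that chose the arms.

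Whether the genotype difference itself depended on the set of files could be tested, since the choice of miR-582 did not use it. The difference of log2 fold changes, deeper minus shallower set, was -2.30 (SE 1.57) for miR-582-5p and -2.20 (SE 1.12) for miR-582-3p, both with an adjusted p of 0.872 in edgeR. These errors are wide, so the test does not show equal differences in both sets. Over all 372 miRNAs tested for it, 0 (0%) passed in edgeR and 0 in DESeq2, while 16 had p under 0.05 before adjustment in edgeR. With WT mouse 2 left out, which leaves 0 WT reads of miR-582-5p and 1 of miR-582-3p in the shallower set, the fitted differences were -5.71 and -3.11, without passing; without WT mice 1 and 3 they were -0.93 and -1.35. The level of the arms, with genotype in the model, did not pass between the sets either: the log2 difference, deeper minus shallower, was 0.88 (SE 0.63, adjusted p = 0.756, edgeR) for miR-582-5p and 0.45 (SE 0.54, adjusted p = 0.856) for miR-582-3p. Without PiZ mouse 1 these were 1.59 and 1.28, and without WT mice 1 and 3 they were 0.54 and 0.051, without passing. For this coefficient 2 of 336 miRNAs (0.595%) were called, miR-145b and miR-339-3p, and DESeq2 called 8.

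PiZ mice differed among themselves. PiZ mouse 3 had 6.38 times the miR-582-5p and 3.04 times the miR-582-3p of PiZ mouse 5, at 9219190 reads in PiZ mouse 3 and 9775091 in PiZ mouse 5. The exact 95% Poisson intervals of these mice were 10.1 to 14.6 CPM in PiZ mouse 3 and 1.09 to 3.11 CPM in PiZ mouse 5 for miR-582-5p, so counting error does not span the gap. In PiZ mouse 5 that interval overlapped the 0.727 to 2.79 CPM of WT mouse 4, as did the 1.89 to 7.25 CPM of PiZ mouse 2. The intervals of PiZ mice 1, 3 and 4 lay clear of every WT interval for both arms. For miR-582-3p the interval of PiZ mouse 5 was 2.72 to 5.54 CPM, and that of PiZ mouse 2 was 3.02 to 9.25 CPM, both overlapping the 1.58 to 3.74 CPM of WT mouse 5. Without PiZ mouse 5, the other PiZ mice averaged 7.94 ± 3.40 CPM of miR-582-5p and 9.91 ± 3.57 CPM of miR-582-3p (SD, n = 4). In all 14 pairs of a mouse and an arm with at least 10 reads, the exact interval of the share of reads from run 1 held that library's own share; the other pairs had too few reads for such a check. The fitted log2 fold change was 3.49 with run 1 alone and 2.36 with run 2 alone for miR-582-5p, and 2.60 and 2.19 for miR-582-3p.

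The balance of the arms was nearly even, which most hairpins here were not. The 5p arm gave 259 of 556 miR-582 reads in PiZ liver, or 46.6% (95% exact Clopper-Pearson interval 42.4% to 50.8%), and 22 of 62 in WT liver, or 35.5% (23.7% to 48.7%). These intervals pool reads over mice and leave out the spread between mice. PiZ mice 3 and 4 gave 242 and 190 of the 556 PiZ reads, so they weigh most in the pooled share. The share of the 5p arm was 35.3%, 41.7%, 50.4%, 48.9% and 32.7% in PiZ mice 1 to 5, against 41.7% and 32.4% in WT mice 4 and 5. WT mice 1, 2 and 3 had 1, 3 and 0 reads of both arms together, too few for a share. PiZ mice 3 and 4 were highest, and PiZ mouse 5 lay beside WT mouse 5. Over the 7 mice with at least 20 miR-582 reads, the mean absolute log2 ratio between the arms was 0.56 for miR-582. Its median over 101 hairpins with a mean of at least 5 reads per arm was 3.15, and 8 hairpins had a smaller one than miR-582. The choice of miR-582 favoured a small ratio, since both arms had to pass the expression filter and both lay near its limit. A very uneven hairpin at this level would have lost its lower arm there. More abundant hairpins can keep both arms at large ratios, so nothing is read from this rank.

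Which arm rose more was tested, since the choice of both arms does not fix it. With a pseudocount of 0.5, the log2 ratio of the 5p to the 3p count averaged -0.48 ± 0.47 in PiZ livers and -0.76 ± 0.60 in WT livers (SD, 5 mice each). The fitted difference, with the set of files in the model, was 0.25 (SE 0.36, 95% interval -0.55 to 1.06, adjusted p = 0.801, limma). The plain difference of the averages, without the set of files, was 0.29, and an exact two-sided permutation test of it over mice gave p = 0.429. These values take in WT mouse 3, whose ratio is 0 by the pseudocount alone, and WT mouse 1 with 1 read. Over the 7 mice with at least 20 reads, a choice made after seeing the data, the log2 ratio averaged -0.48 ± 0.47 in 5 PiZ livers and -0.75 ± 0.40 in 2 WT livers (SD). An exact two-sided permutation test over these gave p = 0.476, where 0.0476 is the smallest it can give, and the limma fit a difference of 0.40 (SE 0.42, adjusted p = 0.980). No difference in balance was detectable at this depth, and the interval over 10 mice still allows a shift of up to 1.06 log2 units towards 5p, or 0.55 towards 3p, in PiZ liver. The fitted difference over 10 mice was 0.60 with a pseudocount of 0.1, 0.13 with a pseudocount of 1 and -0.06 with the second run alone. Of the 101 hairpins limma called 0 (0%), with 4 under p = 0.05 before adjustment.

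**Figure D3:**
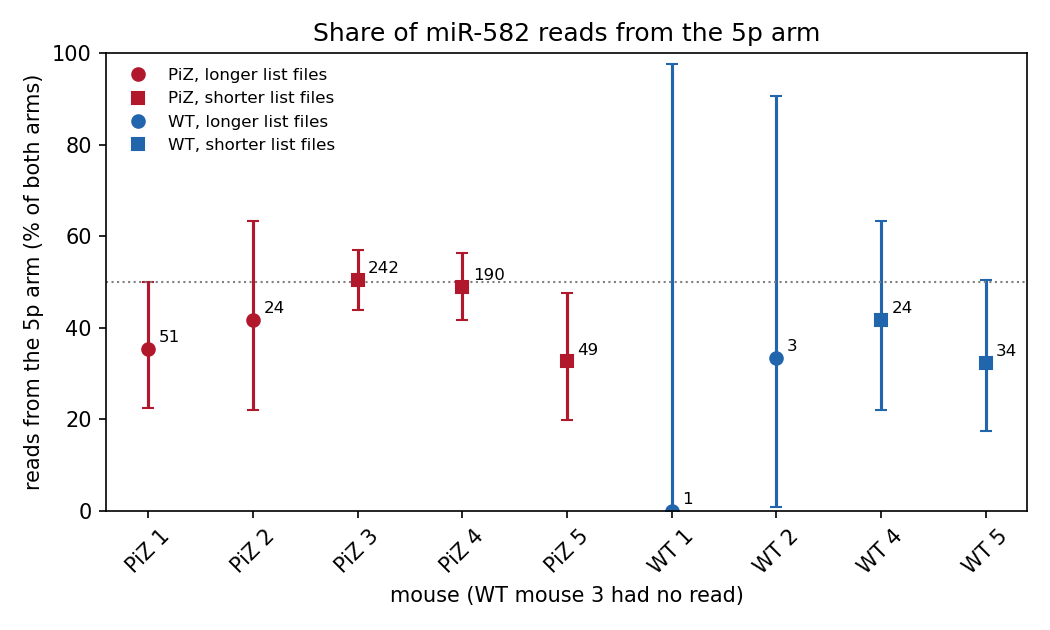
Share of miR-582 reads from the 5p arm in percent for each mouse with any read, PiZ in red and WT in blue, with exact 95% binomial intervals and the reads of both arms beside each point. PiZ mice 3 and 4, with the most reads, lie at 50.4% and 48.9%, and the WT intervals are wide.

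To see which miRNAs varied with miR-582 from mouse to mouse, the mean of each genotype was taken off, so that the difference that chose the arms was not used. Over the 10 mice the arms followed each other with a Pearson r of 0.87 on log2 CPM, and only 2 of 334 other miRNAs had a higher r with miR-582-5p and 2 with miR-582-3p. The 5 miRNAs most like the mean of the arms were miR-144-3p (r = 0.92), miR-542-3p (0.89), miR-451a (0.88), miR-144-5p (0.88) and miR-136-3p (0.84). miR-144 and miR-451a are encoded together and are abundant in red cell precursors. miR-542 belongs to an X-linked cluster, and miR-136 to the imprinted Dlk1-Dio3 region. The points share library depth and the set of files, which was not taken off. With genotype in the model, the log2 difference, deeper minus shallower set, was 1.73 for miR-144-3p, 1.89 for miR-144-5p and 1.26 for miR-451a. It was 0.97 for miR-542-3p and 0.68 for miR-136-3p, and none of the 5 passed in edgeR. WT mice 1 and 3, the shallowest libraries, were the lowest WT mice in each of the 5 miRNAs. Without these mice the 5 had an r of 0.74 to 0.83 over 8 mice and 0 of them stayed among the 5 nearest, so the order of likeness depends on these libraries; the r between the arms was then 0.90.

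Since 3 of these 5 are red cell miRNAs, their levels are given beside miR-582. miR-451a, the defining member of the erythroid list, stood at 172, 50.03, 310.4, 174 and 91.0 CPM in PiZ mice 1 to 5, against 35.03, 46.9, 16.2, 71.7 and 149 CPM in WT mice 1 to 5. PiZ mouse 3 was highest in both miR-451a and miR-582-5p, and the genotypes overlapped in miR-451a through PiZ mice 2 and 5 and WT mice 4 and 5. Neither miR-451a (log2 fold change 1.27, SE 0.47, adjusted p = 0.119) nor miR-144-3p (1.53, SE 0.52, adjusted p = 0.108) passed in edgeR. Of the erythroid list, 0 of 4 tested members passed, where 28 of all 336 tested miRNAs (8.33%) were called higher. Its median log2 fold change was 1.34, and the list summed to 310.4 to 1753 CPM in PiZ and 259.8 to 1080.2 CPM in WT mice. Among WT mice this sum was highest in WT mouse 1, where miR-582 had 1 read, and among PiZ mice it was lowest in PiZ mouse 2. The list members disagreed in WT mouse 1, where miR-451a, miR-144-3p and miR-144-5p stood at 35.03, 7.86 and 2.86 CPM. These were lower than in any WT mouse but WT mouse 3, so most of that sum came from other members of the list. Within a library, miR-582 gave 121, 189, 78.0, 97.0 and 64.4 reads of both arms per 1000 miR-451a reads in PiZ mice 1 to 5, against 20.4, 33.3, 0, 50.7 and 24.8 in WT mice 1 to 5. This ratio, set up after the likeness was seen, did not overlap between genotypes. Nothing is read from that, since its numerator is the miR-582 reads, which were chosen on the same contrast. The ratio needs no scaling between libraries. Whether red cell RNA had a part in the level of miR-582 was not tested, and in bulk liver more cells of a type cannot be told apart from more RNA per cell.

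**Figure D4:**
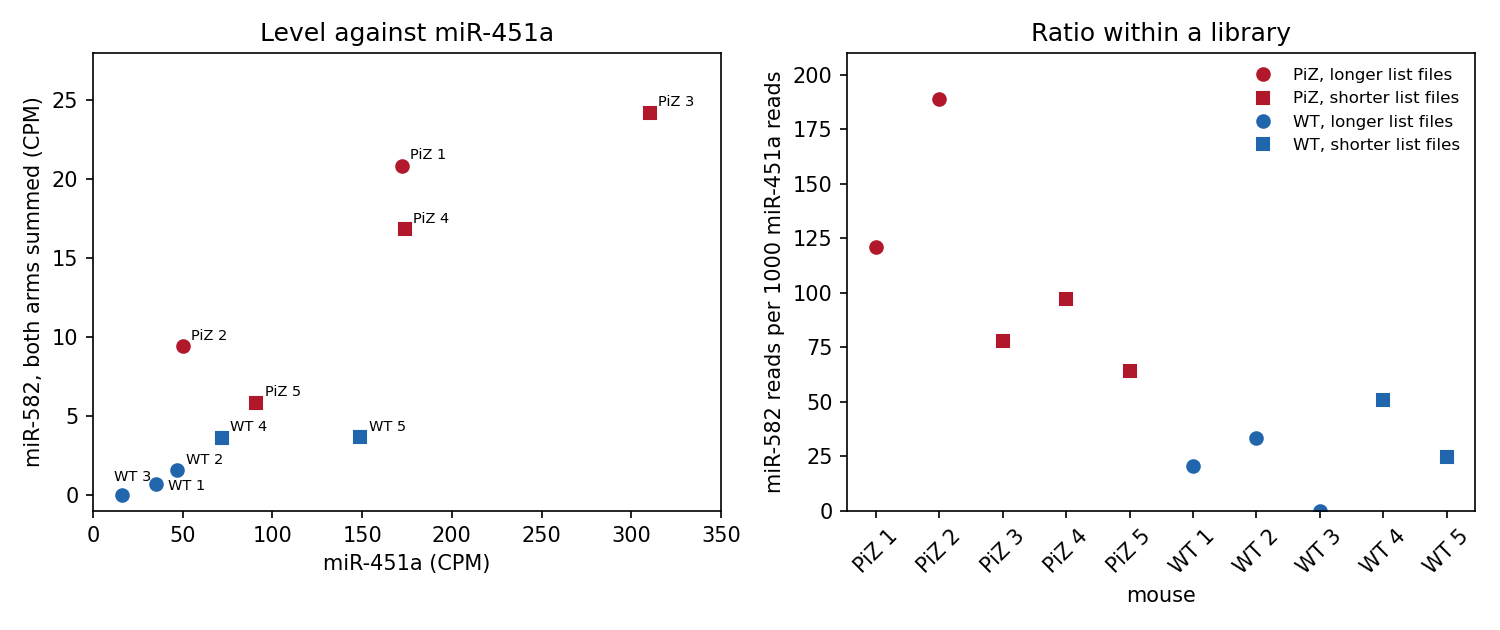
Left, miR-582 (both arms summed, CPM) against miR-451a (CPM) in each mouse; right, miR-582 reads per 1000 miR-451a reads in each mouse, PiZ in red and WT in blue. PiZ mouse 3 is highest on both axes at left, and at right the PiZ mice lie at 64.4 to 189 and the WT mice at 0 to 50.7.

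Markers of other cell types were set beside miR-582 in the same way. Over all 336 tested miRNAs, 28 (8.33%) were called higher and 3 (0.893%) lower, so a short list without a call says little. As given above, the calls also depend on the libraries. Of the immune list, which includes miR-142 and miR-223, 0 of 7 tested members passed (median log2 fold change 0.77), and the list summed to 1899 to 3041 CPM in PiZ and 915 to 2174 CPM in WT mice. Against miR-142, the defining member of the immune list, miR-582 gave 9.31, 8.45, 11.7, 8.01 and 2.74 reads per 1000 miR-142 reads in PiZ mice 1 to 5, against 3.03, 0.947, 0, 4.21 and 2.56 in WT mice 1 to 5. PiZ mice 1 to 4 lay above all WT mice on this ratio, and PiZ mouse 5 lay among them. Its numerator too was chosen on the contrast of PiZ and WT, so this is a description. The pancreas list had 2 of 4 tested members called higher and summed to 12.2 to 85.4 CPM in PiZ and 5.74 to 17.2 CPM in WT mice. Its defining marker miR-217 had 190 PiZ reads and 1 WT read. These PiZ reads were unevenly spread, with miR-217 at 0 to 12.4 CPM among PiZ mice and 0 to 0.152 CPM among WT mice. The hepatocyte, endothelial, mesenchymal, biliary-epithelial and nerve lists had 0 called of 10, 2, 9, 6 and 1 tested members, and 0 members of the muscle list passed the filter. miR-133c, which is not on the muscle list, was among the tested miRNAs. The muscle list summed to 0.394 to 67.9 CPM in PiZ and 0 to 2.86 CPM in WT mice, and the nerve list to 36.8 to 133 CPM in PiZ and 41.4 to 57.4 CPM in WT mice. miR-122, the main hepatocyte miRNA, stood at 6855 to 11213 CPM in PiZ and 11748 to 14307 CPM in WT mice. The hepatocyte list as a whole summed to 216445 to 356586 CPM in PiZ and 87678 to 304876 CPM in WT mice, and the endothelial list to 23353 to 28794 CPM in PiZ and 7895 to 41271 CPM in WT mice. Both sums were lowest of all in WT mice 1 and 3, the mice with 1 and 0 reads of miR-582. The part of these cell types in the level of miR-582 was not tested.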

How the data were processed

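Per the labels' protocols, frozen livers were extracted with the miRNeasy kit, 1 µg RNA went into each TruSeq small RNA library, and each library was run in duplicate. The authors deposited estimated counts per mature miRNA, not normalized, for each of 20 runs; 19 to 32 values per file are not whole. CASAVA is named in the submitters' processing notes; aligner, miRBase release, genome build and the treatment of multiply matching reads were not stated in the labels or files.

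Runs of a mouse were summed and rounded, over the 880 rows listed in every file. edgeR 4.0.16 (filterByExpr, TMM, quasi-likelihood test, set of files and genotype as terms, Benjamini-Hochberg, threshold 0.05) gave fold changes; standard errors were |fold change|/√F. Arm ratios used limma 3.58.1, with a pseudocount of 0.5. Log2 CPM used a prior count of 2. Intervals of levels, read ratios and shares are 95% exact, from scipy 1.17.1, and cover counting error only. The 95% interval of the fitted arm balance comes from the limma fit. Alternatives used DESeq2 1.42.0; RNAfold was 2.7.2, R 4.3.3, Python 3.11.15 and matplotlib 3.10.9. Steps were tested on simulated data. Named miRNAs were the arms, miRNAs sharing a seed (0 found) and the 5 most alike. The members and lists were chosen with earlier results of these data known.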

Additional observations from a re-analysis of the deposited data

Results flagged for a closer look

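Among 38 groups of 5 mice, 3 had a mouse farther from its nearest neighbour than Dixon's limit of 0.71 of the group's range on the scale named, where chance gives about 1 in 20 groups, or 1.90. None was a value of miR-582. The summed log2 CPM of the mesenchymal list was lowest in PiZ mouse 5, with a gap of 0.730 of the PiZ range. The biliary-epithelial list was also lowest in PiZ mouse 5, with a gap of 0.883 and a sum of 182 CPM against at most 319.7 CPM in the other PiZ mice. The muscle list was highest in PiZ mouse 4, with a gap of 0.724 and a sum of 67.9 CPM.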

How the results depend on the processing

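No paired analysis was possible because a number shared by a PiZ and a WT mouse links no animals here, and the rep numbers in the titles are technical runs. The log2 fold change of miR-582-5p was 2.36 to 3.49 over 20 alternatives, 9 of which called it, and it was filtered out without the term for the set of files and in the shallower set alone; that of miR-582-3p was 1.82 to 3.88 over 22, 12 of which called it. miR-582-3p moved by more than its spread between mice only in the shallower set alone (3.88). The arm balance ranged from 0.083 to 0.44 with each mouse left out and reached 0.60 with a pseudocount of 0.1; it was -0.060 with run 2 alone, the single reversal, and 0 of its 21 alternatives passed. The effects of the set of files and of its interaction kept their sign in all 18 alternatives per arm, and 0 passed; that of the set was 0.49 to 1.59 for miR-582-5p and 0.051 to 1.28 for miR-582-3p, and the interaction -5.71 to -0.45 and -3.11 to -0.99. The count of called miRNAs, 31 over both directions, was 5 to 46 with each mouse left out (5 without WT mouse 4, 46 without PiZ mouse 5, and 20 or fewer without any of the other mice). It was 83 with no filter, 18 with run 2 only, 50 with DESeq2, 17 without the term for the set of files, 7 with limma-voom, 0 in the deeper set alone, 0 without WT mice 1 and 3, and 100 when PiZ mouse 5 was removed as well, a choice added after seeing the data. The cause was not tested. Depth limits WT mice 1 to 3, where 1 read is 0.522 to 0.715 CPM.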
